A study of Mus musculus with 42 samples.

Results

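The genes described here are 9 protein-coding genes that lie close together on mouse chromosome 2, namely Ndor1, Tprn, Dpp7, Abca2, Paxx, Fbxw5, Traf2, Edf1 and Tmem141. They were chosen by name as a group of neighbours around Fbxw5 and Paxx, because this stretch of the chromosome holds many genes whose input RNA in testes differed between genotypes. That difference therefore chose the 9 genes, and it is given below as a description. The 9 symbols matched 9 of 27409 rows in the testes table and 10 of 50765 rows in the brain table, where Ndor1 has a second row.

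The study deleted part of Pcif1 in mice with Cas9. Founder embryos were B6D2F1/J hybrids of C57BL/6J and DBA/2J, founders were mated to C57BL/6J, and the line carries an 89 bp deletion at exon 15 and intron 16 of Pcif1 that removes catalytic residues and creates an early stop codon. The labels give a single line, and call all animals used here adult. Testes of heterozygous (HET) and knockout (KO) mice were assayed by m6Am-Exo-Seq, which sequences an input library and a library immunoprecipitated with an antibody against m6A (IP). The testes controls are HET, so they carry 1 deleted allele, while the brain controls are wild type (WT). Brains of WT and KO mice gave ribosome footprints and input RNA. Each of these 8 groups has 3 libraries, 24 of the 42 samples of the series. The labels describe 3 brains of each genotype for footprinting, and do not say whether the testes libraries came from separate animals or whether an IP and an input library share an animal, so the p-values measure the spread between these libraries.

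PCIF1 is the enzyme that methylates the N6 position of adenosine when adenosine is the first transcribed base of a capped mRNA, which yields m6Am. Antibodies against m6A bind m6Am too. FBXW5 is an F-box protein that brings substrates to cullin-RING ubiquitin ligases, and PAXX is a Ku-binding factor of the non-homologous end joining pathway, which rejoins broken DNA. Testis is rich in spermatids, haploid cells with a transcript repertoire of their own.

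The sequences around the annotated transcription starts are shown first, because PCIF1 acts on a first transcribed adenosine. They are RefSeq promoter entries of build GRCm38.p6, read 5′ to 3′ on the gene's strand, 41 bases long with the annotated first base as the only capital. All 9 genes had an entry, and Tmem141 had 2 starts.

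Ndor1, chr2:25255394-25255434, minus strand: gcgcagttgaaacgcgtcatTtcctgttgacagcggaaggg
Tprn, chr2:25262578-25262618, plus strand: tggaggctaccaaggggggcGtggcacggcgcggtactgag
Dpp7, chr2:25356312-25356352, minus strand: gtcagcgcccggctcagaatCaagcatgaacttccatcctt
Abca2, chr2:25428579-25428619, plus strand: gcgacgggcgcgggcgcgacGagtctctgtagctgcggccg
Paxx, chr2:25461074-25461114, minus strand: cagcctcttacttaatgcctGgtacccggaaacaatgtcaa
Fbxw5, chr2:25500730-25500770, plus strand: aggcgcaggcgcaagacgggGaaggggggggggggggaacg
Traf2, chr2:25546920-25546960, minus strand: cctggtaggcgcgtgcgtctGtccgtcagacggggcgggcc
Edf1, chr2:25557827-25557867, plus strand: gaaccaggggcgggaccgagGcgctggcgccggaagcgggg
Tmem141 start 1, chr2:25621985-25622025, minus strand: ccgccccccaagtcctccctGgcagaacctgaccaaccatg
Tmem141 start 2, chr2:25621982-25622022, minus strand: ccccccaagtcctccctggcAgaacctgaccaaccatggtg

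The first base was an A in 1 of these 10 starts, the second start of Tmem141, where the base before it is a C. Among all 32851 RefSeq promoter entries, 34.4% had an A as first base. The annotated start need not be the one used in testes, and the files do not give the start of a read.

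The 300-base windows of Fbxw5 and Paxx, 250 bases before the start and 50 after it, are shown because, of the members, these had the lowest KO values relative to HET in the testes inputs. Capitals mark matches, on either strand, to TGACG (the core of cyclic AMP response elements, the sites of CREM in spermatids), CCAAT and GGGCGG (the GC box). Matches may overlap.

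Fbxw5, chr2:25500500-25500799, plus strand: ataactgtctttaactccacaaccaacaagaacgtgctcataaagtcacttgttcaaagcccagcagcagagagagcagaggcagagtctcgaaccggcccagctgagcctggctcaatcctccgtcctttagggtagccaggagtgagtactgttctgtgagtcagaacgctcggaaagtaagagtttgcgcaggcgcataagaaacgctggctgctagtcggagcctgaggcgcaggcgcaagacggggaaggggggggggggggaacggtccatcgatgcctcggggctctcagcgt
Paxx, chr2:25461045-25461344, minus strand: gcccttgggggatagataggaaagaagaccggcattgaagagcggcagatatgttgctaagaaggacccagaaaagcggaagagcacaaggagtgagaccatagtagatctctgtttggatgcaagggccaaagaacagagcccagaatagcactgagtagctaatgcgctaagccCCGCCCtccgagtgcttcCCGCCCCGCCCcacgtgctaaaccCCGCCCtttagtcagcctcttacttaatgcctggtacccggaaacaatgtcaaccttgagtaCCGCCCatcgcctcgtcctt

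The Fbxw5 window held 0 matches to any of the 3 motifs. The Paxx window held 5 matches to GGGCGG and 0 to the others. Of all RefSeq promoter windows of this length, 35.7% held GGGCGG, 37.4% held CCAAT and 20.8% held TGACG, so a match is common. The members with TGACG were Ndor1 and Traf2, with 2 matches each.

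The testes values below, called signal, are read counts rescaled by library. They are not corrected for gene length, so levels are compared between libraries and not between genes. Each value is relative to the other RNAs of its library, so a rise or fall in IP or input is relative too. The libraries held 4151226 to 4971554 reads in the testes inputs and 1816831 to 6574479 in the IP libraries, the shallowest being KO IP replicate 2. Pcif1 had 7, 8 and 13 reads in the HET inputs and 9, 9 and 2 in the KO inputs. A small deletion need not change that number, so it does not check the labels. In brain input, Pcif1 signal was 253, 318 and 388 for WT mice against 254, 201 and 259 for KO mice.

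Fbxw5 RNA was lower in every KO library of testes. In the inputs, Fbxw5 signal was 6628, 7716 and 7520 in HET and 3511, 1788 and 2002 in KO. The groups were far apart, and KO replicate 1 was the highest of the KO inputs. The log2 difference, on the scale of log2(signal + 1) as for all differences here, was -1.64 ± 0.177 (SE, 3 libraries against 3), a 3.13-fold lower level. In bulk tissue, fewer cells of a type and less RNA per cell cannot be told apart. In the IP libraries Fbxw5 signal was 9682, 7824 and 11141 in HET and 4878, 2980 and 2920 in KO, again without overlap. There Fbxw5 fell by 1.44 ± 0.218 on the log2 scale (limma, adjusted p = 0.000892).

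Paxx RNA, from a gene a few places before Fbxw5, was lower in every KO library too. In the inputs Paxx signal was 421, 506 and 397 in HET and 181, 129 and 185 in KO, a log2 difference of -1.43 ± 0.142. Its IP signal was 664, 960 and 833 in HET and 365, 205 and 196 in KO. All KO libraries lay below all HET libraries of the same kind, and the IP level of Paxx fell by 1.72 ± 0.253 (limma, adjusted p = 0.000751). Across the 12 testes libraries the log2 signals of Fbxw5 and Paxx correlated with a Pearson r of 0.94, a description over libraries of both genotypes and both assays.

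Tmem141, a small membrane protein gene at the far end of the stretch, was also lower in KO in both kinds of library. Input signal of Tmem141 was 234, 252 and 219 in HET and 165, 142 and 147 in KO, a log2 difference of -0.63 ± 0.114. IP signal was 133, 266 and 180 in HET and 68.9, 52.9 and 73.0 in KO. The HET IP libraries spread 2-fold among themselves, but the highest KO library stayed below the lowest HET library. In the IP libraries Tmem141 fell by 1.51 ± 0.289 (limma, adjusted p = 0.00286).

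The falls of these 3 genes in IP were tested on libraries that the choice of genes did not use. Where an IP library shares its RNA with an input library, which the labels leave unsaid, the IP test of these genes is not independent of that choice.

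Tprn and Ndor1 had higher values in the KO IP libraries. Tprn encodes taperin, an actin-associated protein of the base of hair cell stereocilia. Input signal of Tprn was 236, 231 and 249 in HET and 291, 220 and 242 in KO, with overlapping groups and a log2 difference of 0.06 ± 0.117. Its IP signal was 218, 168 and 180 in HET and 552, 445 and 412 in KO. Every KO IP library had more than every HET IP library, and Tprn rose by 1.31 ± 0.211 on the log2 scale, 2.48-fold (limma, adjusted p = 0.00125).

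Ndor1 encodes the diflavin reductase that passes electrons to CIAPIN1 in cytosolic iron-sulfur cluster assembly. Input signal of Ndor1 was 230, 202 and 186 in HET and 192, 215 and 212 in KO, with overlapping groups and a log2 difference of 0.01 ± 0.116. Its IP signal was 201, 186 and 215 in HET and 344, 394 and 299 in KO. All KO IP libraries were above all HET IP libraries, and Ndor1 rose by 0.77 ± 0.206, 1.71-fold (limma, adjusted p = 0.0152). Without KO IP replicate 2, the shallowest library, the difference was 0.68 and no longer passed (limma, adjusted p = 0.0592). The log2 signals of Tprn and Ndor1 correlated across the 12 libraries with r = 0.86, and Ndor1 and Tmem141 with r = -0.90, both as descriptions.

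**Figure D1:**
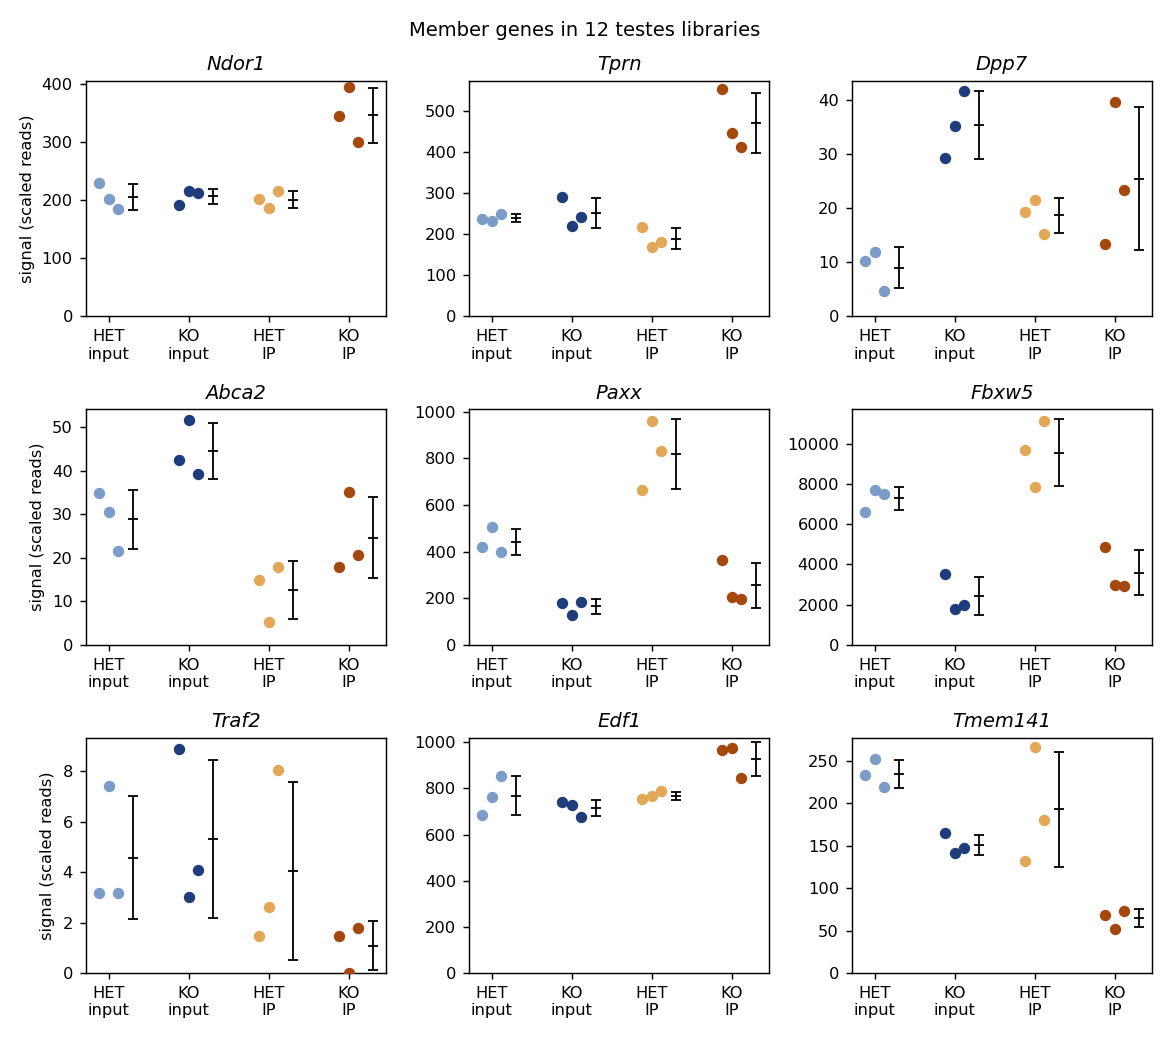
Signal of the 9 genes (scaled reads, linear axes from 0, 1 panel per gene) in the HET and KO testes input and IP libraries. Coloured points are single libraries and black marks give the mean with 1 SD (n = 3). Fbxw5, Paxx and Tmem141 points are lower in KO in both assays, and Tprn and Ndor1 points are higher in KO in IP, while their input groups overlap.

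Dpp7 and Abca2 had low signal in testes. Dpp7 encodes a dipeptidyl peptidase of intracellular vesicles. Its input signal was 10.3, 12.01 and 4.78 in HET, which is 13, 13 and 6 reads, and 29.2, 35.2 and 41.7 in KO, a log2 difference of 1.93 ± 0.331. Its IP signal was 19.4, 21.6 and 15.2 in HET and 13.5, 39.6 and 23.4 in KO, where the groups overlapped and the difference of 0.32 ± 0.451 did not pass (limma, adjusted p = 0.635).

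Abca2 encodes a lipid transporter of endolysosomes that is abundant in oligodendrocytes. In the inputs, Abca2 signal was 34.8, 30.5 and 21.5 in HET and 42.5, 51.7 and 39.3 in KO, a log2 difference of 0.62 ± 0.229. Its IP signal was 14.9, 5.22 and 17.9 in HET and 17.96, 35.2 and 20.7 in KO. The lowest KO IP library lay just above the highest HET IP library, and the difference of 1.00 ± 0.519 did not pass (limma, adjusted p = 0.167). These values rest on 8 to 23 reads per IP library, which limits their precision.

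Edf1 encodes a protein that binds collided ribosomes and recruits translation repressors. Its signal in the inputs was 687, 765 and 853 in HET and 743, 726 and 677 in KO, with overlapping groups and a log2 difference of -0.10 ± 0.0933. Its IP signal was 753, 766 and 787 in HET and 965, 976 and 843 in KO. The KO IP libraries were the higher ones, but the difference of 0.27 ± 0.172 did not pass (limma, adjusted p = 0.263; 95% interval -0.10 to 0.64).

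Traf2 encodes a ubiquitin ligase adaptor of tumour necrosis factor receptors. It had 4, 8 and 4 reads in the HET inputs, 10, 4 and 5 in the KO inputs, 1, 4 and 9 in HET IP and 1, 0 and 2 in KO IP. It missed the filter of signal 10 in 3 libraries and was not tested in testes.

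In the testes input comparison that chose the genes, 8 of the 9 members passed the filter, and limma called 1 of them higher in KO (Dpp7) and 3 lower (Fbxw5, Paxx and Tmem141). Over all 11278 genes it called 3.32% higher and 6.01% lower, and HET and KO did not overlap for 13.3% in the higher direction and 16.5% in the lower. The groups of 2 tested members (Dpp7 and Abca2) were higher without overlap, and those of 3 were lower without overlap. These counts restate how the genes were chosen and are no test of them. Dpp7 needed its KO inputs to pass the filter, which favours a higher call. In the IP comparison, limma called 2 of the 8 tested members higher (Tprn and Ndor1) and 3 lower. The shares over all 11345 genes were 11.5% higher and 14.8% lower, so a call in the IP comparison is common. The median log2 difference of the tested members in IP was 0.29, against 0.01 for all genes.

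The IP signal can also be set against input within each genotype. Within HET the log2 IP against input of Tprn was -0.35, and within KO it was 0.90, a difference of 1.245 between genotypes. For Ndor1 the values were -0.03 and 0.73. Fbxw5 had 0.38 in HET and 0.59 in KO, and Paxx had 0.88 and 0.58. For these genes both IP and input were lower in KO. The difference of 0.21 for Fbxw5 was -0.035 without KO IP replicate 1. Tmem141 went from -0.34 to -1.22, and Dpp7 from 1.04 to -0.57. These are descriptions, since the inputs chose the genes. In the authors' deposited table the corresponding log2 values were 1.26 for Tprn, 0.77 for Ndor1, -0.93 for Tmem141, 0.17 for Fbxw5 and -0.26 for Paxx.

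In brain input, no difference between KO and WT was called for any member. The WT libraries had Fbxw5 signal of 191, 169 and 227 and the KO libraries 196, 187 and 188, with a log2 difference of -0.03 ± 0.137 (limma, adjusted p = 0.956) and a 95% interval of -0.35 to 0.30. For Paxx the WT libraries had 98.3, 117 and 126 and the KO libraries 107, 126 and 137, a difference of 0.12 ± 0.163 (limma, adjusted p = 0.813) with an interval of -0.27 to 0.50. For Tmem141 the values were 60.3, 50.2 and 62.7 (WT) against 68.3, 53.0 and 53.5 (KO), a difference of 0.01 ± 0.192 (limma, adjusted p = 0.989) with an interval of -0.45 to 0.46. For these 3 genes the brain groups overlapped. The intervals leave out the estimated testes input differences of Fbxw5, Paxx and Tmem141. Those estimates chose the genes and may be overstated by that choice. For Tmem141 the testes input interval, -0.88 to -0.39, overlaps the brain interval. The tables were normalized separately and the controls differ (HET in testes, WT in brain). The inputs also belong to different assays, m6Am-Exo-Seq in testes and ribosome footprinting in brain. The difference between tissues was therefore not tested.

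Tprn input signal in brain was 134, 75.2 and 85.8 for WT mice against 96.9, 156 and 157 for KO mice, a difference of 0.48 ± 0.283 with overlapping groups (limma, adjusted p = 0.576). Dpp7 had 99.6, 138 and 57.3 (WT) against 128, 45.6 and 83.6 (KO), a difference of -0.23 ± 0.446. The WT and KO libraries of Dpp7 spread by more than 2-fold within each group. Traf2 had 63.9, 66.7 and 66.5 (WT) against 62.6, 39.4 and 60.4 (KO). Its KO libraries were the lower ones without overlap, by -0.30 ± 0.221 (limma, adjusted p = 0.639), and the lowest was KO input replicate 2, whose depth of 5528739 estimated reads was the smallest of the brain libraries.

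Abca2 had 2013, 2085 and 2531 (WT) against 2258, 2062 and 3165 (KO), a difference of 0.16 ± 0.175. Ndor1 had 29.1, 32.9 and 44.4 (WT) against 41.7, 42.2 and 41.1 (KO), a difference of 0.25 ± 0.226. Edf1 had 370, 330 and 409 (WT) against 408, 305 and 376 (KO), a difference of -0.03 ± 0.143. The groups of these 3 genes overlapped, with limma adjusted p-values of 0.762, 0.708 and 0.951. Of 9 rows tested, 0 were called by limma and 0 had an unadjusted p under 0.05, where limma called 0.255% of all 15298 genes and 10.5% had an unadjusted p under 0.05. The second Ndor1 row was listed at 0 in 4 of the 6 brain input libraries and was not tested.

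Ribosome footprints in brain, which show RNA held by ribosomes, gave 0 called members of 9 tested by limma, with 0.223% of all 14377 genes called. Ndor1 footprint signal was 81.1, 82.6 and 110 (WT) against 160, 113 and 145 (KO), higher without overlap by 0.61 ± 0.236 (limma, adjusted p = 0.440). Edf1 footprint signal was 657, 727 and 757 (WT) against 572, 543 and 454 (KO), lower without overlap by 0.45 ± 0.154 on the log2 scale (limma, adjusted p = 0.425). These 2 of 9 members had an unadjusted p under 0.05 in footprints, as did 10.8% of all genes. Fbxw5 footprints were 181, 175 and 198 (WT) against 171, 203 and 160 (KO), and Paxx footprints 68.0, 94.2 and 77.5 against 85.0, 79.5 and 107. Both had overlapping groups, with differences of -0.06 ± 0.182 and 0.18 ± 0.240. The differences of Tprn (-0.49 ± 0.381), Dpp7 (-0.48 ± 0.420), Abca2 (-0.44 ± 0.238), Traf2 (-0.60 ± 0.408) and Tmem141 (-0.31 ± 0.554) were all negative, with overlapping groups. WT footprint replicate 2 had the lowest WT value for each of these 5 genes, and its part in these differences was not tested. For the change of footprints relative to input, limma called 0 of 9 members, 0 with an unadjusted p under 0.05, and 0.188% of all 16527 genes.

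**Figure D2:**
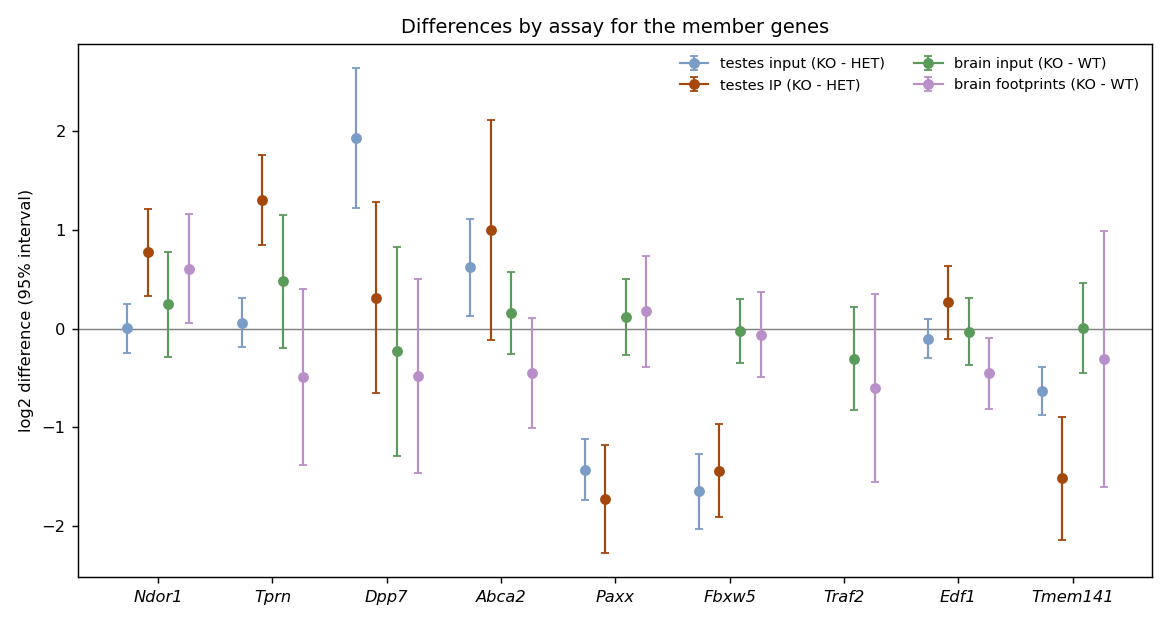
Log2 difference of the 9 genes between KO and control (KO minus HET in testes, KO minus WT in brain) in 4 comparisons, with 95% intervals from limma. The testes input and IP points of Fbxw5, Paxx and Tmem141 lie below 0, the testes IP points of Tprn and Ndor1 lie above it, and the brain input intervals all cover 0.

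The stretch between Tprn and Tmem141 holds 35 genes in RefSeq, of which 27 are in the testes table and 19 were tested. Ndor1 lies just before Tprn, outside it. Besides the members, 12 genes were tested. In the testes input, limma called 4 of these 12 lower (Tmem210, Ptgds, C8g and Ccdc183) and 0 higher. In IP it called 4 lower (Tmem210, Man1b1, Ptgds and Ccdc183) and 2 higher (Ssna1 and Rabl6). The shares over all genes were 3.32% higher and 6.01% lower in input and 11.5% higher and 14.8% lower in IP. The stretch was chosen for its testes input changes, so the input counts restate that choice and are no test.

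C8g, which encodes the gamma chain of complement component 8, lies next to Fbxw5 and overlaps it on the opposite strand. Its input signal was 88.9 ± 8.03 (SD, n = 3) in HET and 47.0 ± 13.2 in KO, and its IP signal was 85.8 ± 9.01 in HET and 59.1 ± 7.13 in KO. Ptgds, the prostaglandin D2 synthase gene between Paxx and C8g, went from 171 ± 17.9 to 123 ± 16.5 in input and from 184 ± 18.2 to 95.7 ± 16.5 in IP. Ccdc183, the gene before Tmem141, went from 89.6 ± 11.4 to 52.6 ± 1.90 in input. Tmem210, near Tprn, went from 881 ± 84.2 to 697 ± 55.0 in input and from 1975 ± 279 to 846 ± 100 in IP. Anapc2, a subunit of the anaphase promoting complex, was higher in KO without overlap in input (191 ± 8.58 against 218 ± 12.1) and not called. Rabl6 was lower without overlap in input (114 ± 12.5 against 98.7 ± 3.93), not called there, and higher in IP (97.1 ± 6.67 against 168 ± 22.0). Clic3, which overlaps Paxx, had a signal below the filter.

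Beyond the stretch, the tested genes next to it were Ndor1 and Rnf208 on one side and Glt6d1 on the other. The input differences were -0.30 for Rnf208 and -0.29 for Glt6d1, and both had overlapping groups. Of the 20 tested genes before the stretch limma called 5 (25%), within it 8 of 19 (42.1%), and of the 20 after it 2 (10%). Chromosome 2 had 77 of 839 called (9.18%), and all genes 9.33%. Pcif1 is on chromosome 2 as well, with 626 tested genes between it and the stretch, and of the 20 tested genes on each side of Pcif1, 2 of 40 were called (5%). These are descriptions, since the stretch was chosen for these changes. The founders were hybrids of different strains, so an effect of the Pcif1 deletion and one of strain alleles in this stretch cannot be told apart here. Linkage between the stretch and Pcif1 was not tested.

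**Figure D3:**
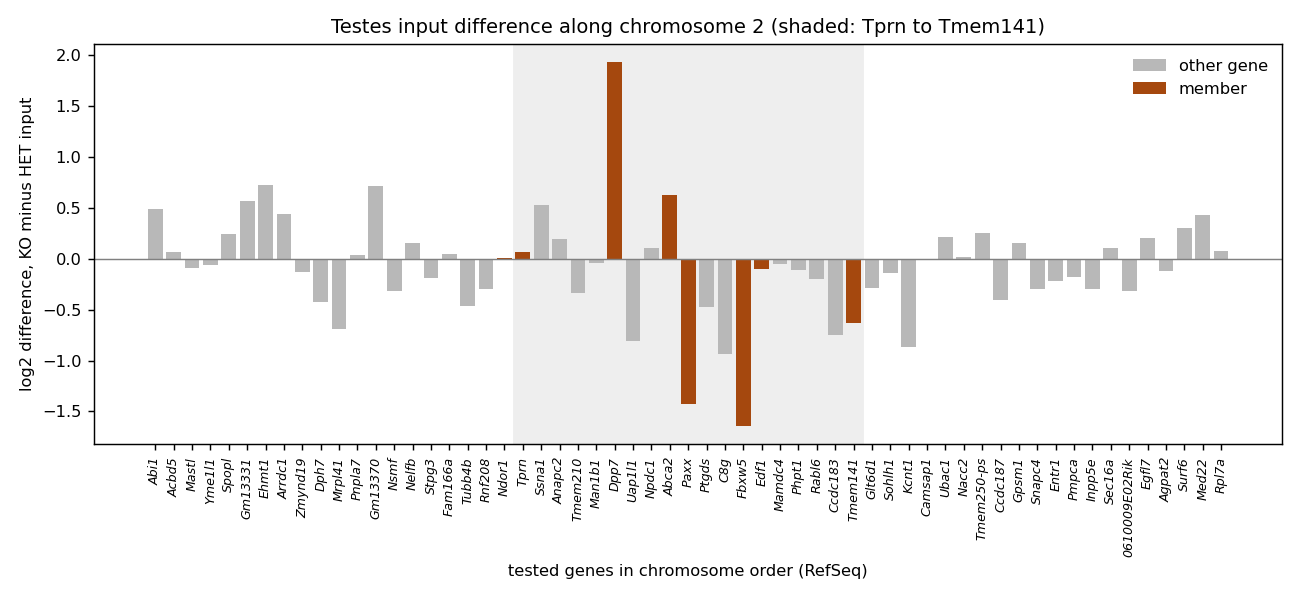
Testes input log2 difference (KO minus HET) for tested genes in their chromosome order, from 20 before to 20 after the stretch between Tprn and Tmem141, which is shaded. Brown bars are members and grey bars other genes. The lowest bars are Fbxw5 (-1.64) and Paxx (-1.43), the highest is Dpp7 (1.93), and Tprn, Ndor1 and Edf1 are near 0.

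Overlapping genes bear on how these reads can be assigned. By RefSeq, Fbxw5 overlaps C8g, Paxx overlaps Clic3, Ndor1 overlaps Tmem203, Tmem141 overlaps Fcnaos, Abca2 overlaps Mir3087 and Traf2 overlaps Gm13433, while Tprn, Dpp7 and Edf1 overlap no gene. Whether the counting used strand is not given in the sources used here, so reads of such pairs may not be told apart.

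Testis cell markers differed between genotypes in the same libraries. Of 9 tested round spermatid markers, 4 were lower in the KO inputs (Zpbp2, Zpbp, Catsper4 and Crem) and 0 higher, with a median log2 difference of -0.38. The summed signal of the 10 listed markers was 8269 to 8761 in HET and 6463 to 7078 in KO. In IP, 7 of 9 were lower (Zpbp2, Zpbp, Acr, Spaca1, Acrv1, Spag6 and Crem), and the sums were 10444 to 13609 in HET and 5578 to 5807 in KO. Catsper3, below the filter, was at 0 in every KO IP library and at 4.48, 9.14 and 3.57 in HET IP. Of 8 tested elongating spermatid markers, 1 was lower in the KO inputs (Oaz3), with sums of 39784 to 42671 in HET and 35122 to 36140 in KO. Odf1, below the filter, was at 0 in all KO inputs and at 0, 0 and 0.797 in the HET inputs. In IP, 4 of 8 elongating spermatid markers were lower (Oaz3, Akap4, Gapdhs and Smcp). Sertoli cell markers were higher for 2 of 6 in input (Wt1 and Vim), with a median of 0.10 and sums of 696 to 791 in HET and 811 to 920 in KO. In IP, 3 of 5 Sertoli markers were higher (Wt1, Vim and Inha), with sums of 812 to 894 in HET and 1249 to 1398 in KO. Spermatocyte markers were higher for 2 of 10 in input (Sycp3 and Meiob), with a median of 0.27. Their sums in input were 2358 to 2520 in HET and 2561 to 2849 in KO. Of 6 tested spermatogonia markers 0 were called in input, with a median of 0.39. The sums of the 9 listed spermatogonia markers in input were 345 to 356 in HET and 445 to 487 in KO. In IP, spermatocyte markers went both ways, with 2 of 10 higher (Mlh3 and Piwil1), 1 lower (Spo11) and a median of -0.38. Their sums in IP were 2709 to 3255 in HET and 3717 to 3960 in KO, the opposite direction to the median. Spo11 (23.2 ± 5.81 in HET, 5.90 ± 2.63 in KO) passed the filter only through its HET libraries, which favours a lower call. Acrv1 in IP (78.9 ± 13.4 in HET, 6.90 ± 6.13 in KO) also needed its HET libraries to pass. Mlh3 in IP (10.2 ± 5.88 in HET, 43.3 ± 11.1 in KO) needed its KO libraries, which favours a higher call. Of 7 tested spermatogonia markers, 2 were higher in IP (Id4 and Zbtb16). Leydig cell markers had 0 of 3 called in input and 0 of 3 in IP, and their sums overlapped between genotypes. Over all genes limma called 9.33% in input and 26.3% in IP. The part of these shifts in the differences of the members was not tested.

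Over the lists of genes from the members' pathways, limma called 3 of 58 tested genes in the testes input (5.17%), against 9.33% of all genes, and 8 of 56 in IP (14.3%), against 26.3% of all genes. Of 11 tested cullin-RING ligase subunits and FBXW5 targets, 0 were called in input, and in IP 3 were higher (Tsc2, Cul1 and Cul4a) and 1 lower (Cul4b). TSC2 and SASS6 are known substrates of FBXW5, and CUL1 and the CUL4 proteins are scaffolds of its ligases. Tsc2 signal in IP went from 34.4 ± 17.6 in HET to 68.0 ± 9.26 in KO. Of the tested end joining genes around PAXX, 0 of 7 were called in input and 0 of 5 in IP by limma, with medians of -0.23 and -0.41 against -0.00 and 0.01 for all genes. Cytosolic iron-sulfur assembly genes, the pathway of NDOR1, had 2 of 7 lower in input (Mms19 and Nubp2) and 0 higher, and 0 of 7 called in IP. In the ribosome collision list around EDF1, Map3k20, the kinase ZAK, was higher in input from a low level (3.26 ± 1.99 to 14.3 ± 3.83). Map3k20 passed the filter only through its KO libraries, which favours a call in that direction. In IP, Zfp598 of this list was higher and Ascc2 lower. Tumour necrosis factor signalling genes around TRAF2 had 0 of 9 called in input and 1 of 12 higher in IP (Map3k5). Map3k5 in IP (8.27 ± 4.03 in HET, 33.1 ± 7.79 in KO) needed its KO libraries to pass the filter, which favours a higher call. Of the other ABCA transporters 0 of 8 were called in input and 1 of 7 was lower in IP (Abca17). Other dipeptidyl peptidases had 0 of 5 called in each, and the taperin list 0 of 2. In brain input and footprints, limma called 0 genes in each of these lists.

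By Pearson correlation of log2 signal over the 12 testes libraries, among 12386 other genes, the 5 most like Fbxw5 were Gm12259 (r = 0.96), Fam228b (0.95), 3110053B16Rik (0.94), 4932415M13Rik (0.94) and Gm29179 (0.94). Those most like Paxx were Gm12259 (0.96), 4933402C06Rik (0.96), Gm9866 (0.96), Fam228b (0.95) and Sqor (0.94), and Gm12259 and Fam228b are on both lists. Of these, Sqor is on chromosome 2. The correlations run across both genotypes, both assays and libraries of different depth, so differences between those groups enter them.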

How the data were processed

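The authors deposited signal values, reads per gene rescaled by library, in 1 table for testes and 1 for brain with 12 library columns each. The authors' tables also hold a log2 fold and an adjusted p-value per gene, of which only the log2 values are printed. Tools named in the submitters' processing notes are DESeq, DESeq2 1.25.10, R 3.6.2, STAR and Salmon 0.12.0. The sources used here give no genome build, annotation or strand use. For testes, 100% of values were whole multiples of 1 read (tolerance 0.01), so whole reads were recovered. For brain 7.72% to 15.5% were, so no count model was used there.

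Genes that reached a signal of 10 in 3 or more libraries of a comparison were tested with limma 3.58.1 (R 4.3.3) on log2(signal + 1), with empirical Bayes, a mean-variance trend and Benjamini-Hochberg adjustment over all genes at 0.05. The code was checked on simulated data. The files were tested for identical columns and 0 pairs were found. Libraries were numbered within each group in accession order. The members, the gene lists, the motifs and the tests were chosen with earlier results of these data known. The genes named are all members in each comparison, genes of the stretch that neighbour Fbxw5 or Paxx or whose testes input groups do not overlap, called genes of the pathway lists, and the 5 genes most like Fbxw5 and Paxx. Genes of the stretch called in IP, the marker genes named, and Rnf208 and Glt6d1, the tested genes next to the stretch and Ndor1, were chosen after their values were seen. RefSeq names, gene order and promoter sequences (GRCm38.p6) were matched by symbol. Alternatives were a pseudocount of 5, no filter, equal library sums, TMM scaling, a spread from all 12 libraries, leaving out each library, and, for testes, edgeR 4.0.16 and DESeq2 1.42.0 on whole reads.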

Additional observations from a re-analysis of the deposited data

Results flagged for a closer look

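Edf1 had values on opposite sides of its controls in the IP of testes and the footprints of brain. Its log2 ratio of group means was 0.27 in testes IP, where every KO library was above every HET library. In brain footprints the ratio was -0.45, and every KO library was below every WT library. Neither difference passed (limma, adjusted p = 0.263 in testes IP and 0.425 in brain footprints). Over all genes, groups without overlap were counted in testes input only, where they made up 13.3% higher and 16.5% lower. Those shares need not hold in testes IP or brain footprints, where limma called 26.3% and 0.223% of all genes. The difference between the tissues was not tested, because the tables were normalized separately and the assays and controls differ.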

How the results depend on the processing

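With the spread estimated from all 12 libraries, 2 members (Fbxw5 and Paxx) were called in the testes input instead of 4, and 24 genes in all instead of 1052. With DESeq2, 3 members were called there, because Dpp7 had no adjusted p-value. The Dpp7 input difference of 1.93 was 1.55 with a pseudocount of 5 and 1.57 without HET input replicate 3. The testes input comparison chose the members, so these counts say nothing of how stable they are. In testes IP 5 members were called under every other setting, and 4 without KO IP replicate 2. Calls among all genes ranged from 281 to 1433 in testes input, from 1606 (without HET IP replicate 3) to 2814 in IP, from 7 to 24 against 39 in brain input, from 0 to 956 against 32 in footprints and from 15 to 874 against 31 for the ratio when a library was left out. The high ends of footprints and ratio came without WT footprint replicate 2. With all 12 libraries, IP had 4658 and footprints 143. Equal library sums moved the testes input calls to 581 higher and 463 lower, and shifted the median of all genes to 0.26 in footprints and 0.22 for the ratio. Some differences changed sign. Fbxw5 with equal library sums was 0.19 in footprints and 0.21 in the ratio, and Tmem141 with TMM was -0.012 in brain input. With a library left out the ranges were -0.055 to 0.69 for Dpp7 in IP, -0.065 to 0.089 for Ndor1 and -0.048 to 0.15 for Tprn in testes input, and -0.035 to 0.50 for Fbxw5 and -0.12 to 0.68 for Abca2 in IP against input between genotypes. In brain input they were -0.11 to 0.072 for Tmem141, -0.57 to 0.16 for Dpp7, -0.12 to 0.090 for Edf1, -0.13 to 0.086 for Fbxw5 and -0.027 to 0.28 for Abca2. In footprints they were -0.16 to 0.013 for Fbxw5 and -0.80 to 0.12 for Tmem141. In the ratio they were -0.15 to 0.068 for Fbxw5, -0.72 to 0.15 for Dpp7, -0.063 to 0.18 for Paxx and -0.81 to 0.11 for Tmem141. The cause was not tested. No paired analysis was possible because the labels and columns carry no replicate numbers.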
